A study of Homo sapiens with 3 samples.

Results

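LGR6 is a receptor of the Wnt pathway, and it was examined here together with 9 genes that Wnt signalling is known to switch on or that mark Wnt-driven intestinal cells, which were LGR5, ASCL2, MYC, SOX9, TCF7, AXIN2, RNF43, NKD1 and EPHB2. These 10 genes, of 18615 genes measured, were selected on earlier results of the same arrays, so their values are a description. Every probe that the array files name for one of them was used, 17 probes in 35 spots per array.

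The cells were YB5, 1 clone grown from SW48, a human colon cancer line. A methylated viral promoter keeps the GFP reporter of this clone off, and control and treated cells both carry it. Cells received decitabine at 25 nM, carboplatin at 20 µM (the dose on the sample labels, from which part of the study's text differs) or both drugs, given 4 times from day 1 to day 4, and were collected on day 6, while control cells received the solvent DMSO. Decitabine is built into DNA and traps the enzymes that methylate it, and carboplatin crosslinks DNA. RNA of treated cells (green dye, Cy3) and of control cells (red dye, Cy5) was hybridised together on 3 arrays, 1 per treatment, with no dye swap and no replicate, so a dye preference of a probe is part of each change and no test could be run.

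In the Wnt pathway, secreted Wnt ligands bind Frizzled and LRP receptors, a destruction complex that holds AXIN and APC then stops degrading beta-catenin, and beta-catenin enters the nucleus and activates genes with TCF/LEF factors. R-spondins, bound by LGR receptors, strengthen the signal by removing the ubiquitin ligases RNF43 and ZNRF3, which take Frizzled off the cell surface. The pathway maintains stem cells of the intestinal crypt and is active in most colon cancers.

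LGR6 carried the largest change among the 10 genes, and its 2 probes are shown because they read different stretches of the gene. Both lie on the plus strand of chromosome 1 in the build of the files (GRCh37), with starts 274 bases apart, at chr1:202288529-202288588 and chr1:202288803-202288862. The part of the transcript that each one covers was not analysed here. The first 30 of 60 bases are given 5′ to 3′, with no capitals.
LGR6 A_23_P23839: cttggccttcctcagcttcaccttgatact
LGR6 A_23_P23834: taagctttggaagagattacacatgatgtc

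Upstream sequence of LGR6 was taken from the RefSeq table (GRCh38.p14), since decitabine acts on methylation of CpG dinucleotides, a C followed by a G. The 250 bases before the most upstream LGR6 start, chr1:202193549-202193798 on the plus strand, hold 8 CpG, set in capitals.
LGR6 upstream: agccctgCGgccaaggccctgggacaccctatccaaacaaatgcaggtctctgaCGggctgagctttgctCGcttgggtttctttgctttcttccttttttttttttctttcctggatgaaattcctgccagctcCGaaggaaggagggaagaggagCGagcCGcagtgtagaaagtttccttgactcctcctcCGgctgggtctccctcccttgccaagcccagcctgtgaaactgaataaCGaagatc

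With the 50 bases after the start included, the 3 LGR6 windows in that table hold 11, 5 and 9 CpG, against a median of 14 over all 35116 windows of 300 bases. EPHB2 windows hold 49 and 48 CpG, TCF7 windows 25 and 3, and RNF43 windows 0 and 5. The core of the TCF/LEF site, CTTTGA, was searched on both strands and matched in 0 of the 9 windows of these 4 genes and in 12.9% of all windows. The EPHB2 windows overlap almost completely, so the windows are not all separate. LGR5, ASCL2, MYC, SOX9, AXIN2 and NKD1 had no window and were not searched. Methylation was not measured on these arrays.

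On every array the control channel of 6 to 8 of 10 colon epithelium markers was well above background by the scanner software's flag. Of 5 markers of fibroblasts and endothelium only COL1A1 was. Of 4 leukocyte markers 2 to 3 were above background, and PTPRC, the pan-leukocyte antigen, was below it on all arrays. Of 53 genes that the study lists as decreased by carboplatin, 40 fell at least 1.5-fold on the decitabine-labelled array, 4 on the carboplatin-labelled array and 37 on the combination array (both drugs), so the arrays are called decitabine-labelled, carboplatin-labelled and combination arrays throughout. Whether the labels of the single-drug arrays are exchanged was not settled by these data, so a value here belongs to a label and not with certainty to a drug. "Label order" below means decitabine-labelled, carboplatin-labelled and combination. The first 9 columns of spots on the decitabine-labelled array, 10.1% of its spots, had a median log2 change of 0.75, against −0.02 elsewhere on it.

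LGR6 fell on the decitabine-labelled array and on the combination array. All values below are log2 ratios of treated over control signal after loess normalisation, or channel levels in normalised intensity units. A fold of 1.5, a log2 change of 0.58, was taken as a change. For the brighter probe, A_23_P23839, the control level was 4106 on the decitabine-labelled array, 3959 on the carboplatin-labelled array and 3936 on the combination array. In treated cells it was 897, 3036 and 793 in label order. The control levels lay within 1.04-fold of each other after scaling between the arrays. Raw control signals of this probe were 6280, 6180 and 5357 in label order. Treated cells were below control cells on all 3 arrays.

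**Figure D1:**
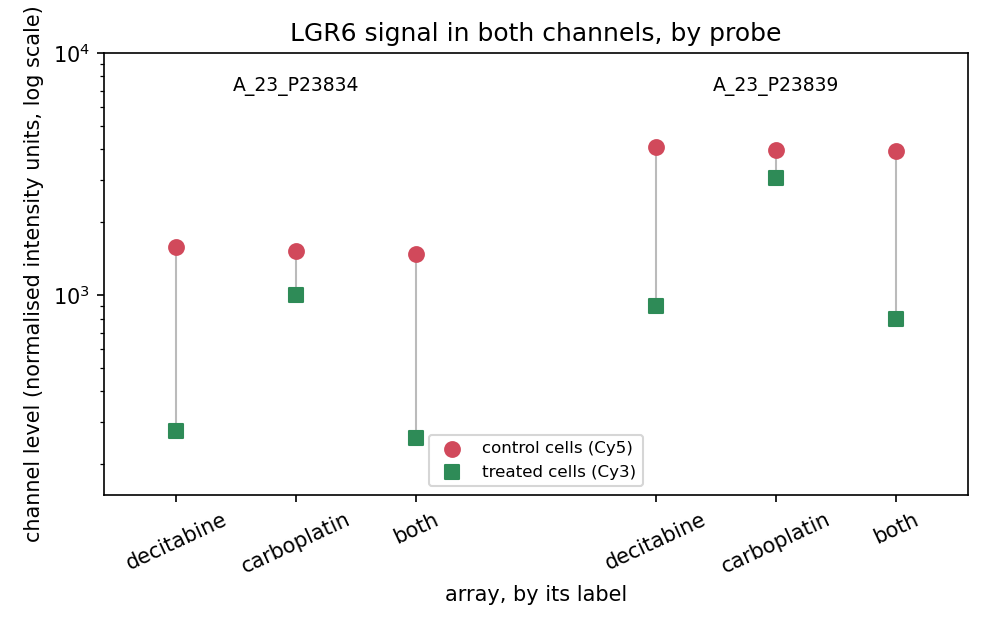
Channel level of LGR6 (normalised intensity units, log scale) for each of its 2 probes on the 3 arrays, with circles for control cells and squares for treated cells. For A_23_P23839 the treated level was 897 and 793 on the decitabine-labelled and combination arrays and 3036 on the carboplatin-labelled array, below control levels of 3936 to 4106.

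The log2 change of LGR6 by this probe was −2.19 on the decitabine-labelled array, a 4.58-fold lower signal, and −2.31 on the combination array, 4.96-fold lower. It was −0.38 on the carboplatin-labelled array, short of 1.5-fold. The second probe, A_23_P23834, gave −2.52, −0.61 and −2.52 in label order, so it passed 1.5-fold on all 3 arrays. Its control levels were 1576, 1520 and 1483, and its treated levels 275, 998 and 258.

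The change on the combination array minus that on the decitabine-labelled array was −0.12 for the brighter probe. Repeated spots of 1 probe outside the first 9 columns varied with an SD of 0.0776 on the decitabine-labelled array and 0.0757 on the combination array, which gives an SD of 0.108 for a difference of 2 single spots. These arrays were therefore not told apart for LGR6 beyond 2 such SDs, whereas the change on the combination array minus that on the carboplatin-labelled array was −1.93. This spread is that of spots within an array and leaves out the spread between cultures.

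Ordered from the largest fall, among genes with a channel well above background and outside the first 9 columns, LGR6 was at place 7 of 12616 on the decitabine-labelled array, 1004 of 12822 on the carboplatin-labelled array and 9 of 12654 on the combination array. The genes with the most similar 3 changes, by Euclidean distance over 12161 genes with control channels well above background on all 3 arrays, were MBOAT1, a membrane-bound acyltransferase, at 0.20, the histone H4 gene H4C3 at 0.235, PRR15L at 0.398, MYCN, a relative of MYC, at 0.435 and MARCO, a scavenger receptor, at 0.471. MBOAT1 changed by −2.02, −0.45 and −2.23. None of the other 9 members was near LGR6 by this measure, the nearest being AXIN2 at 2.72.

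Of the 10 genes, 2 rose at least 1.5-fold on the decitabine-labelled array, ASCL2 and MYC, beside 10.6% of all genes, and 1 fell, LGR6, beside 4.67%. That share of rising genes includes the first 9 columns. Without them 887 of all genes rose on this array in place of 1971, and still 2 of the 10. On the carboplatin-labelled array 1 rose, ASCL2, beside 2.76%, and 0 fell, beside 1.49%. On the combination array 1 rose, ASCL2, beside 7.47%, and 1 fell, LGR6, beside 5.93%. The median log2 change of the 10 genes was 0.09, 0.02 and 0.04 in label order, against 0.01, −0.01 and 0.00 over all genes. Below 0 were 4, 5 and 5 of the 10 genes, and 7, 7 and 8 after each array was centred on its median in place of the loess curve. That centring put the median of all genes itself below 0, at −0.135, −0.156 and −0.104 in label order. Below this median were 6, 7 and 8 of the 10 genes. All of the 10 except LGR5 were well above background in both channels on all 3 arrays.

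**Figure D2:**
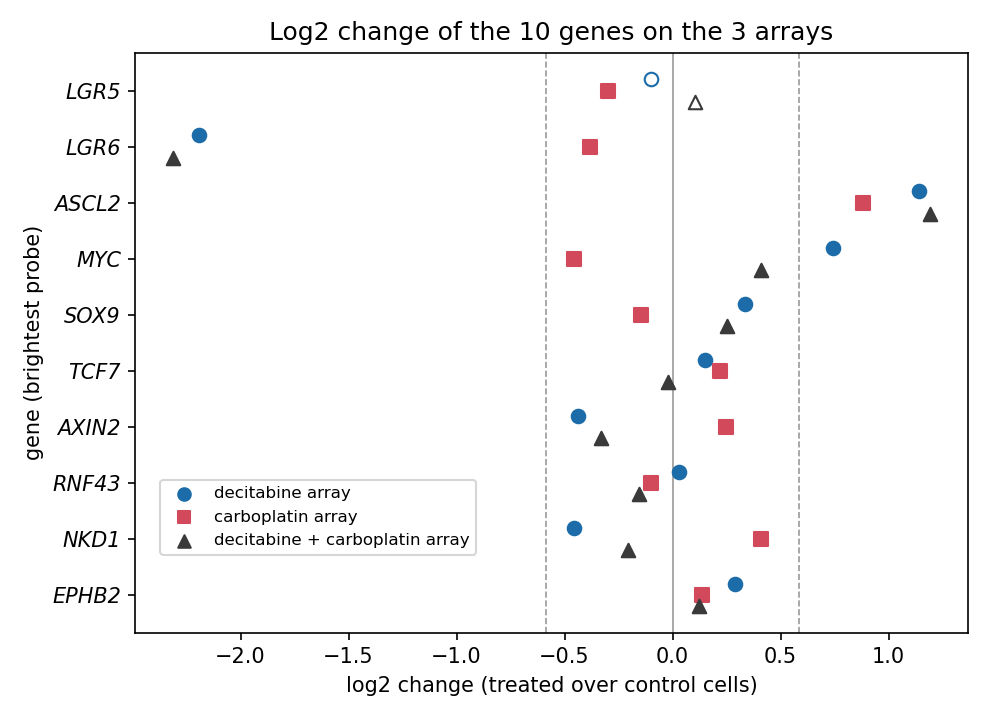
Log2 change of treated over control cells for the brightest probe of each of the 10 genes, with circles for the decitabine-labelled array, squares for carboplatin and triangles for both drugs, and open symbols where neither channel was well above background. Dashed lines mark a 1.5-fold change. LGR6 lies at −2.19 and −2.31 on the decitabine-labelled and combination arrays, ASCL2 lies between 0.88 and 1.19 on all 3, and the other 8 genes lie nearer 0.

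LGR5, another R-spondin receptor and the classical marker of intestinal stem cells, gave almost no signal. Its 1 probe (A_23_P98974, chr12:71978325-71978384) had raw control signals of 100.1, 105 and 90.3 and treated signals of 72.8, 61.0 and 62.9, in label order. Only the control channel of the carboplatin-labelled array was well above background. On that array the control level was at least 1.20-fold higher than the treated level after loess normalisation. With the array centred on its median the log2 change was 0.13, of the other sign. No direction is therefore given for LGR5 on any array.

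Among the transcription factors, ASCL2, which maintains intestinal stem cells, rose on all 3 arrays. Its brighter probe (A_32_P171061, chr11:2289959-2290018) had control levels of 2659, 2465 and 2400 and treated levels of 5854, 4542 and 5477, again in label order. Treated levels lay above all control levels, with log2 changes of 1.14, 0.88 and 1.19. The second probe of ASCL2 (A_23_P105088) was not well above background in control cells on any array, and where treated cells were above it the change was at least 1.14-fold up on the carboplatin-labelled array and at least 1.11-fold up on the combination array. With the probes averaged ASCL2 changed by 0.69, 0.54 and 0.67, so it then fell short of 1.5-fold on the carboplatin-labelled array.

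MYC, a transcription factor that drives growth and proliferation, had changes of opposite sign on the single-drug arrays. Its brightest probe (A_23_P215956, chr8:128753268-128753327) is spotted 10 times on each array. The control level was 21277, 20310 and 19742 and the treated level 35639, 14826 and 26213, in label order. The log2 change was 0.74, −0.45 and 0.41, and only the first passed 1.5-fold.

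The MYC spots outside the first 9 columns, 9 per array, ranged from 0.70 to 0.79 on the decitabine-labelled array, from −0.52 to −0.37 on the carboplatin-labelled array and from 0.34 to 0.44 on the combination array. The ranges did not overlap. The remaining spot, in the third column, had a raw control signal of 10586 on the decitabine-labelled array, where the other 9 spots had 29797 to 41984, and a treated signal of 23296 within their range of 20363 to 29647. The scanner software marked this spot as an outlier, so it was left out there, and it would have given a log2 change of 2.37. On the other arrays the same spot gave −0.52 and 0.45.

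TCF7, a TCF/LEF factor that pairs with beta-catenin, is also spotted 10 times (A_23_P7582, chr5:133483237-133483296), with 2 of the spots in the first 9 columns. Control levels were 2045, 2046 and 1905 and treated levels 2272, 2379 and 1876, in label order. The log2 changes of 0.15, 0.22 and −0.02 were all short of 1.5-fold. On the decitabine-labelled array the 2 edge spots were marked as outliers and left out, and they would have given 1.40 and 1.60, while the 8 others ranged from 0.11 to 0.18.

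**Figure D3:**
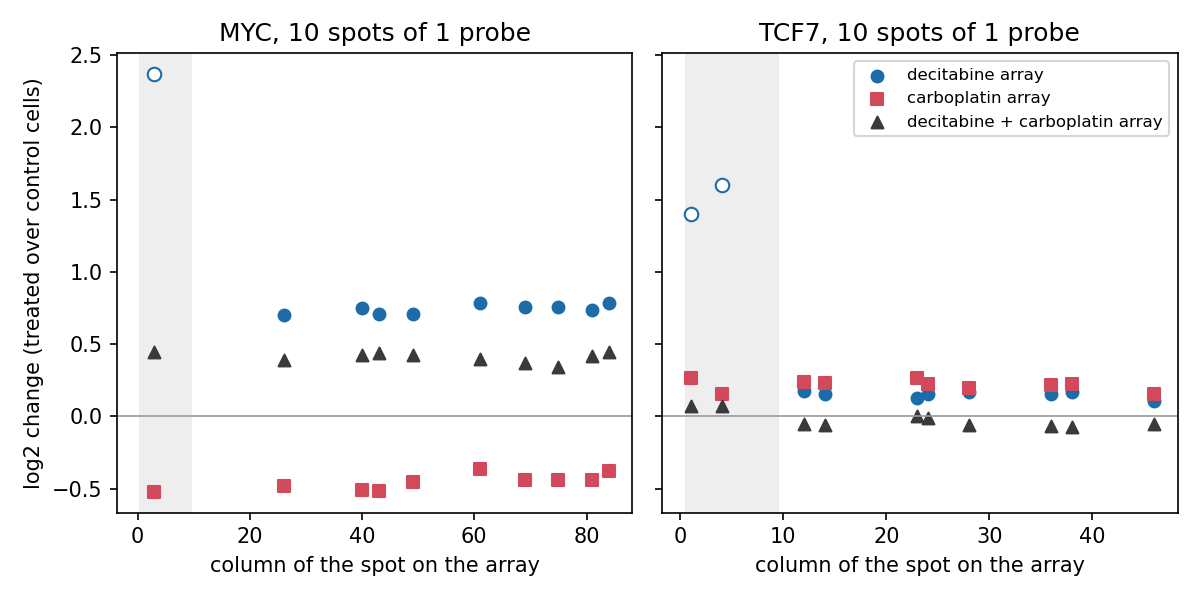
Log2 change of single spots of MYC and TCF7 against the column of the spot on the array, with circles for the decitabine-labelled array, squares for carboplatin and triangles for both drugs. The grey band marks columns 1 to 9, and open symbols are spots left out as outliers. Those 3 open symbols lie at 1.40 to 2.37, while the other MYC spots on that array lie at 0.70 to 0.79 and the other TCF7 spots at 0.11 to 0.18.

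SOX9, a transcription factor of crypt cells (A_23_P26847, chr17:70121841-70121900), had control levels of 1523, 1364 and 1363 and treated levels of 1924, 1233 and 1623. Its log2 changes were 0.34, −0.15 and 0.25 in label order, none past 1.5-fold.

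Of the feedback inhibitors, AXIN2, a scaffold of the destruction complex that Wnt signalling induces, was measured by 3 bright probes. The brightest (A_23_P148015, chr17:63525389-63525448) had control levels of 24809, 26318 and 24455 and treated levels of 18291, 31198 and 19460, in label order. It was lower in treated cells on the decitabine-labelled and combination arrays, and higher on the carboplatin-labelled array. The log2 changes were −0.44, 0.25 and −0.33, short of 1.5-fold. The other probes gave −0.23 and −0.42, 0.25 and 0.52, and −0.21 and 0.05 in label order, so the 3 probes had 1 sign on each single-drug array and differed in sign on the combination array.

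NKD1, which binds Dishevelled and dampens the signal, had the same order of changes as AXIN2. Its brighter probe (A_23_P429449, chr16:50667885-50667944) had control levels of 551, 571 and 546 and treated levels of 401, 758 and 473. The log2 changes were −0.46, 0.41 and −0.21 in label order, none past 1.5-fold. The dimmer probe (A_24_P304881), with raw control signals of 106 to 182, gave 0.07 and 0.04 on the single-drug arrays, nearer 0 than the brighter one. On the combination array its treated channel was not well above background, and the control level was at least 1.04-fold higher.

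RNF43, the ubiquitin ligase that removes Frizzled receptors (A_23_P3934, chr17:56431453-56431512), had control levels of 25206, 19165 and 22678 and treated levels of 25720, 17878 and 20330. The log2 changes of 0.03, −0.10 and −0.16 were smaller than the spread of its control channels, whose highest level was 1.32-fold the lowest. EPHB2, a receptor tyrosine kinase that positions cells along the crypt (A_23_P200067, chr1:23240591-23240650), changed by 0.29, 0.13 and 0.12, with control levels of 491 to 535 and treated levels of 533 to 606.

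The dimmer probes of MYC had raw control signals of 125 to 203, against 28328 or more for the brightest probe. A_24_P178011 gave −0.09 on the carboplatin-labelled array and A_24_P38363 gave 0.20, so the direction of MYC on that array differed between its probes. On the decitabine-labelled array both gave positive values, 0.13 and 0.67.

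LGR6, ASCL2 and NKD1 kept their sign on every array under another scaling, and the other 7 genes did not. When each array was centred on its median in place of the loess curve, the median change of all genes moved by −0.14, −0.15 and −0.11, and all of the 10 genes except LGR5 had lower values on each array. LGR6 was then at −2.58, −0.71 and −2.63 relative to the median of all genes, in label order, and ASCL2 at 0.73, 0.56 and 0.84. MYC was at 0.24, −0.86 and −0.06, AXIN2 at −0.93, −0.21 and −0.79, and NKD1 at −0.70, 0.23 and −0.40 on the same relative scale. The value itself changed sign for 5 of the 10 genes on the decitabine-labelled array, 4 on the carboplatin-labelled array and 3 on the combination array. Among all genes this centring gave 1714 up and 4478 down on the decitabine-labelled array, in place of 1971 and 870. The share of all genes up was then 9.21, 8.99 and 4.34% in label order, and the share down 24.1, 19.1 and 21.4%.

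The rest of the pathway was described by 101 further genes. They rose at least 1.5-fold in 9 cases and fell in 8 on the decitabine-labelled array, 4 and 5 on the carboplatin-labelled array, and 10 and 8 on the combination array, beside 10.6, 2.76 and 7.47% of all genes up and 4.67, 1.49 and 5.93% down in label order. Their median changes were 0.01, 0.02 and 0.02, near those of all genes. In at least 1 channel 74, 77 and 75 of them were well above background, and 22 were not above it in any channel, of which 10 were ligands. Without the 6 genes measured only in the first 9 columns, 5 rose on the decitabine-labelled array in place of 9. Among all genes 887 rose there without these columns, in place of 1971.

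Of 22 ligands, the Wnts and R-spondins, 2, 1 and 5 rose and 0 fell at least 1.5-fold, and under median centring 1, 4 and 3 rose and 3, 0 and 1 fell. Over all genes the shares were 10.6, 2.76 and 7.47% up and 4.67, 1.49 and 5.93% down. Under centring they were 9.21, 8.99 and 4.34% up and 24.1, 19.1 and 21.4% down. WNT11 changed by −0.51, 1.71 and 0.66 in label order, from control levels of 537 to 584 to treated levels of 410, 1762 and 881. WNT10A changed by 0.83, 0.51 and 1.05, and WNT4 by 0.23, 0.21 and 1.19. WNT4 was thus past 1.5-fold on the combination array alone, with a control level of 109 and a treated level of 249.

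Of 16 receptors 0 rose on any array and 2, 1 and 3 fell, and under median centring 0 rose and 9, 5 and 8 fell, beside 4.67, 1.49 and 5.93% of all genes down and 24.1, 19.1 and 21.4% under centring. FZD1, a Frizzled receptor, changed by −0.82, −0.25 and −1.04. Of 14 genes of the destruction complex and its transducers 1, 0 and 2 rose and 0 fell, whereas under median centring 1, 0 and 0 rose and 4, 5 and 4 fell. Of all genes 10.6, 2.76 and 7.47% rose, and 9.21, 8.99 and 4.34% under centring. The 1 that rose on the decitabine-labelled array, AXIN1, with a log2 change of 1.54, was measured in the first 9 columns of that array. Among nuclear factors TLE1, a corepressor of TCF/LEF factors, changed by −0.42, −1.11 and 0.24, the last of which turned to −0.60 under median centring. TLE1 control levels themselves differed between the arrays, at 284269, 335977 and 251781, with treated levels of 211814, 155640 and 296911.

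Among the inhibitors APCDD1, a membrane protein that binds Wnt ligands, changed by −1.59, −0.08 and −1.32 and so fell where LGR6 fell. Its control levels were 406 to 418 and its treated levels 137, 395 and 162. Of 19 other genes known as Wnt targets 4, 2 and 2 rose at least 1.5-fold and 3, 3 and 4 fell, in label order. Of all genes 10.6, 2.76 and 7.47% rose and 4.67, 1.49 and 5.93% fell. Outside the first 9 columns 2, 2 and 2 of these targets rose and 3, 2 and 3 fell. Under median centring 1, 1 and 1 rose, beside 9.21, 8.99 and 4.34% of all genes. With that centring 5, 6 and 5 fell, beside 24.1, 19.1 and 21.4%. TNFRSF19 (also called TROY, a stem cell marker) changed by −1.27, −0.60 and −1.55, and BAMBI, a decoy receptor of TGF-beta signalling, by −1.14, −0.70 and −1.05. BMP4, a bone morphogenetic protein, changed by 1.19, 0.43 and 1.26, and by −0.19 on the carboplatin-labelled array under median centring. DPEP1, a dipeptidase, changed by −0.37, 1.71 and −0.17, a rise on the carboplatin-labelled array alone.

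**Figure D4:**
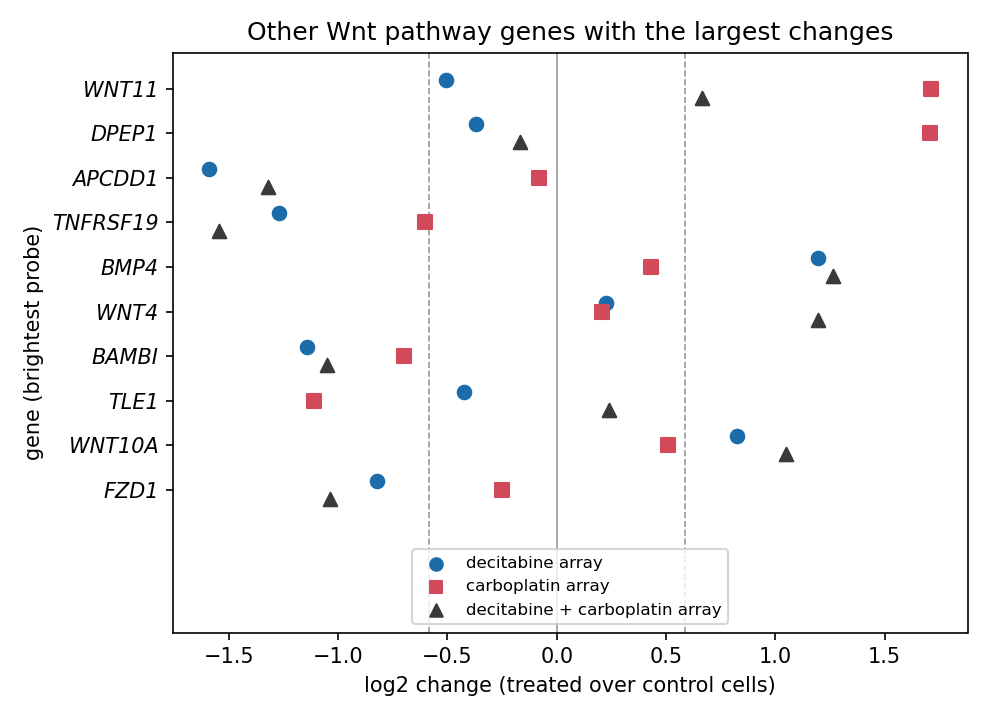
Log2 change of treated over control cells for the 10 further Wnt pathway genes with the largest changes outside the first 9 columns, with circles for the decitabine-labelled array, squares for carboplatin and triangles for both drugs. Dashed lines mark a 1.5-fold change. APCDD1, TNFRSF19, BAMBI and FZD1 lie below 0 on all 3 arrays, BMP4, WNT10A and WNT4 lie above 0 on all 3 (BMP4 at −0.19 on the carboplatin-labelled array under median centring), and WNT11 and DPEP1 reach 1.71 on the carboplatin-labelled array.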

How the data were processed

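Total RNA of treated (Cy3) and control (Cy5) YB5 cells was measured on 3 dual-colour Agilent whole human genome arrays, grouped by sample label. The authors deposited spot intensity files read by Agilent Feature Extraction 9.5.3.1 (the submitters' notes name 8.5.1.1), holding raw signals, flags and a log10 ratio of red over green. The authors also deposited a table of log2 values, loess normalised with limma in R 3.0.2; its sign (treated over control) follows from how it correlated with the log ratio of each array after that was turned to treated over control (0.79, 0.68 and 0.80 in the label order decitabine, carboplatin and both), its column medians were −0.01, 0 and −0.01, and its background step is not stated.

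Here the mean signals were corrected against the median local background by normexp (offset 50) and normalised by loess in limma 3.58.1 (R 4.3.3), leaving out control spots and 276, 111 and 89 outlier spots. Channel levels came from Aquantile scaling. Spots of a probe were averaged, and a gene was represented by its brightest probe. Of 41000 probes 29381 had a RefSeq gene. A change was 1.5-fold, with no test. "At least" folds set the brighter channel against the lowest level well above background, or against the dimmer channel's own level where that was higher. The latter held for ASCL2 and NKD1, so their "at least" folds equal the measured ratios. The steps were tested on simulated data.

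The members and lists were chosen with earlier results of these data known. The genes named were all 10 members, up to 10 other Wnt genes with the largest change of at least 1.5-fold outside columns 1 to 9, and the 5 genes nearest LGR6. Alternatives were median signals without background subtraction, an offset of 16, median centring, leaving out columns 1 to 9, keeping outlier spots, the scanner log ratio, the deposited log2 values and the mean of all probes. The control channel was well above background in 68.2 to 70.3% of spots and the treated channel in 65.8 to 68.5%. Having 1 array per treatment limits the precision.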

Additional observations from a re-analysis of the deposited data

Results flagged for a closer look

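In 3 of the 10 genes the brightest probe changed with opposite signs on the decitabine-labelled and carboplatin-labelled arrays, beyond 2 SDs on both. These SDs are those of repeated spots outside the first 9 columns. SOX9, at 0.34 and −0.15, and RNF43, at 0.03 and −0.10, also had opposite signs on these arrays. For both genes at least 1 value was short of 2 SDs. With all columns the SD on the decitabine-labelled array was 0.23, and AXIN2 and NKD1 fell short of 2 such SDs on it. The log2 change of MYC was 1.20 higher on the decitabine-labelled array than on the carboplatin-labelled array. That of AXIN2 differed by −0.69 and that of NKD1 by −0.86 in the same direction of subtraction. The dimmer NKD1 probe gave 0.07 and 0.04 on these arrays. The dimmer MYC probes gave 0.13 and −0.09, and 0.67 and 0.20. All AXIN2 probes had opposite signs on them. With 1 array per treatment the differences were not tested. Under median centring AXIN2 lay below 0 on both of these arrays, at −1.06 and −0.36, with MYC at 0.10 and −1.02, and NKD1 at −0.84 and 0.07. On this scale 1 value of MYC and 1 of NKD1 was under 2 SDs. Relative to the median of all genes under that centring, MYC was at 0.24 and −0.86 and NKD1 at −0.70 and 0.23, each beyond 2 SDs. AXIN2 was then at −0.93 and −0.21, below 0 on both.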

How the results depend on the processing

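LGR6 stayed at or beyond −2.18 on the decitabine-labelled array and −2.31 on the combination array, and ASCL2 at or above 0.59 and 0.67, in all 9 settings. On the carboplatin-labelled array LGR6 ranged from −0.86 to −0.37 and passed 1.5-fold under median centring alone, and ASCL2 from 0.40 to 0.91. MYC passed 1.5-fold on the decitabine-labelled array in 7 of 9 settings, with values from 0.10 to 0.91. No call reversed.

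Under median centring 1, 0 and 1 of the 10 genes rose at least 1.5-fold in label order, beside 9.21, 8.99 and 4.34% of all genes. Those that fell at least 1.5-fold numbered 4, 3 and 3, beside 24.1, 19.1 and 21.4% of all genes. The median of the other Wnt genes was then −0.20 on the decitabine-labelled array, −0.16 on the carboplatin-labelled and −0.15 on the combination array. By the scanner log ratio 3 of the 10 genes rose on the decitabine-labelled array, 1 fell on the carboplatin-labelled array and 2 fell on the combination array. Among all genes 2098 rose, 1142 fell and 2100 fell there, in the same order. The added gene was each time LGR5, near background, at 0.68, −1.21 and −0.65. In the deposited log2 values 2 fell on the decitabine-labelled array, LGR6 and AXIN2, beside 1156 of all genes. With all probes averaged 1 rose on the decitabine-labelled and 0 on the carboplatin-labelled array, beside 1880 and 455 of all genes. The cause of these shifts was not tested, except that averaging adds the dimmer probes. LGR5 ranged from −1.21 to 0.13 on the carboplatin-labelled array, which its low signal limits. Leaving out columns 1 to 9 changed no count of these 10 genes; among all genes it left 887 up on the decitabine-labelled array in place of 1971, and centring gave 3554 down in place of 278 on the carboplatin-labelled array and 3985 in place of 1103 on the combination array. Treated and control RNA shared each array, so every log2 change is a ratio within 1 array. Each treatment has 1 array, so no test was run.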
